A study of Homo sapiens with 24 samples.

Results

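The genes described here are the DNA replication machinery and the enzymes that supply its nucleotides, followed in human prostate cells given HIP1 or an empty vector. The list held 53 genes: the MCM helicase and its partners, the origin recognition complex (ORC), and genes of licensing and firing. It also held the sliding clamp and its RFC loader, polymerases, RPA, lagging-strand nucleases and ligase, fork protection, chromatin assembly and nucleotide enzymes. Each gene was read at its brightest probe over all 24 arrays among probes with 1 gene symbol, and was tested in a line where that probe was above a log2 intensity of 6.97 on at least 6 of 12 arrays. A named probe was found for 52 of the 53 genes, among 18852 genes with one; POLD2, a subunit of polymerase delta, had none. After the filter 49 genes were tested in PNT1a and 48 in LNCaP, out of 8644 and 8375 genes of any kind. GINS1, DBF4 and CLSPN were not well above background in either line, and CDC6 passed the filter in PNT1a alone.

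Illumina HT-12 arrays measured total RNA of 24 cultures, 6 in each of 4 groups, labelled as biological replicates. PNT1a is an immortalised line of prostate epithelium, and LNCaP is a line of prostate cancer that responds to androgen. HIP1, huntingtin interacting protein 1, is a clathrin adaptor of endocytosis. The study asked how forced HIP1 expression changes gene expression in each line.

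The groups were PNT1a stably transfected with HIP1, PNT1a stably transfected with empty vector, LNCaP transfected transiently with HIP1, and LNCaP transfected transiently with empty vector. Both PNT1a lines were kept in 0.8 mg/ml of the selection drug G418, and both LNCaP groups were taken at day 4 after transfection. The medium, RPMI with fetal bovine serum, was the same for all 4 groups. The labels do not say whether a stable line is 1 clone or a pool, nor what share of LNCaP cells took up plasmid. PNT1a was immortalised with a viral large T antigen, a protein known to bind the retinoblastoma family.

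Before S phase, ORC, CDC6 and CDT1 load the ring of MCM2 to MCM7 onto origins of replication; CDC45 and the GINS complex then join it to make the working helicase. Primase and the polymerases copy both strands, tethered by the PCNA clamp, while ribonucleotide reductase, thymidylate synthase and thymidine kinase keep up the supply of nucleotides. Most of these genes are transcribed from late G1 into S phase under E2F transcription factors, which retinoblastoma family proteins hold back, so their summed mRNA is widely read as a mark of proliferation in prostate cells.

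A stretch of promoter that carries an E2F word is shown for 8 members, from 6 roles, that were lower on HIP1-labelled LNCaP arrays. These 8 were picked among lower members that hold such a word upstream of the start. That every stretch holds the word follows from this choice and is no trait of all lower members. Each runs 5′ to 3′ in the direction of the gene, and capitals mark the E2F word on either strand. The sequences are RefSeq's, build GRCh38.p14: CDC45 at chr22:19479860-19479919 (plus strand), GINS2 at chr16:85688955-85689014 (minus strand), MCM6 at chr2:135876496-135876555 (minus strand), MCM7 at chr7:100101398-100101457 (minus strand), CDT1 at chr16:88803729-88803788 (plus strand), POLA2 at chr11:65261902-65261961 (plus strand), PCNA at chr20:5126648-5126707 (minus strand) and TYMS at chr18:657588-657647 (plus strand). All 8 stretches lie upstream of the annotated transcription start.
CDC45: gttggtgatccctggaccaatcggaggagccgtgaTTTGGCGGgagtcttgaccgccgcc
GINS2: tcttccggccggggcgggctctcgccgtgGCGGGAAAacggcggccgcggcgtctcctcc
MCM6: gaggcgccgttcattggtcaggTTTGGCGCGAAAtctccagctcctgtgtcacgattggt
MCM7: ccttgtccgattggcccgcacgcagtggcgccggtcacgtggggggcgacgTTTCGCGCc
CDT1: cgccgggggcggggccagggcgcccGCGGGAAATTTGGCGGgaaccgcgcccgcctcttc
POLA2: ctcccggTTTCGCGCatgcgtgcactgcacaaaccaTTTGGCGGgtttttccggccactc
PCNA: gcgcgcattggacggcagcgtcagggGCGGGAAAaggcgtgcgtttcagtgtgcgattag
TYMS: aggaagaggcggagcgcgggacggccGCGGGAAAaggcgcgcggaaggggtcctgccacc

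The search used 5 E2F words of 8 bases (TTTGGCGC, TTTCGCGC, TTTCCCGC, TTTGCCGC and TTTGGCGG) on both strands, over 250 bases before to 50 bases after the start; overlapping matches were counted separately, as in MCM6, while the CDT1 pair lies side by side. Of the 53 genes, 48 had a promoter in the table, and 25 of these (52.1%) held at least 1 E2F word. The share was 3.95% over all 27305 promoters and 6.61% over the 6956 promoters of genes tested in LNCaP. E2F words stood in the promoters of 19 of the 32 members that were lower in HIP1-labelled LNCaP (59.4%) and 3 of the 11 that were tested and not called (27.3%). Those 3 were ORC3, RFC1 and POLE, named after their values were seen. The other 13 lower members held none of these words in the window, TK1, RNASEH2A, FEN1, PRIM1 and TIMELESS among them, which were also named after their values were seen.

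A second word, CCAAT, the box bound by the factor NF-Y, stood in 28 of 48 member promoters (58.3%), against 38.6% of the promoters of genes tested in LNCaP. The cell cycle homology region, CHR, searched as TTTGAA or TTCGAA on both strands, was in 3 member promoters (6.25%), those of MCM6, RRM1 and DBF4. Genes of mitosis, listed separately, differed in makeup: 15 of 20 promoters held a CHR word (75%), 16 of 20 held CCAAT (80%) and 5 of 20 held an E2F word (25%). The CHR share among genes tested in LNCaP was 10.8%. These counts describe letters in a window and carry no test.

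**Figure D1:**
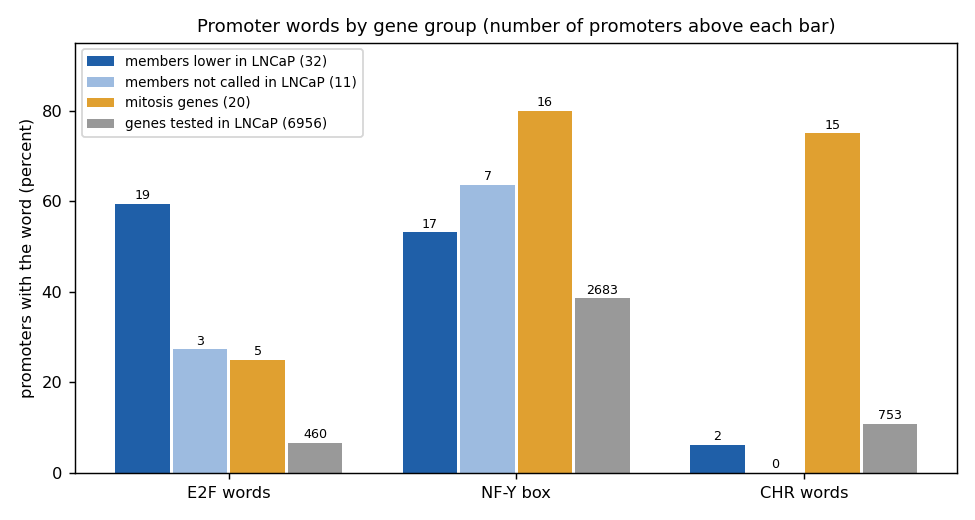
Share of promoters (percent, from 250 bases before to 50 after the start) that hold each kind of word, for members lower in HIP1-labelled LNCaP, members not called there, mitosis genes and all genes tested in LNCaP; the number above a bar is the number of promoters. E2F words stood in 59.4% of members lower in LNCaP and 6.61% of tested genes, while CHR words stood in 75% of mitosis genes and 6.25% of the lower members.

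The HIP1 probe itself gave no check of the constructs. It read 7.10 to 8.09 (median 7.90) in PNT1a with HIP1 and 7.30 to 7.86 (median 7.74) in PNT1a with vector, with a log2 difference of 0.10 (95% interval -0.23 to 0.43, adjusted p = 0.703). In LNCaP it read 7.11 to 7.52 (median 7.25) with HIP1 and 7.19 to 7.59 (median 7.44) with vector (log2 difference -0.11, 95% interval -0.29 to 0.06, adjusted p = 0.451). The groups overlapped in both lines, and where the probe lies relative to the construct is not given, so arrays are called HIP1-labelled throughout. Arrays of a group correlated at 0.919 to 0.982 on average in PNT1a and at 0.990 to 0.994 in LNCaP, the lowest being both PNT1a arrays numbered 6. By their residuals from group means, the PNT1a arrays were cut into 3 clusters and the LNCaP arrays into 2, numbers that were set by choice. Each cluster held both groups, which is no test of the groups, since their means had been taken out. The luminal marker TMPRSS2 was at least 22.5-fold higher in LNCaP vector than PNT1a vector arrays, and 6 of 7 measured luminal markers were higher in LNCaP, with KRT8 lower. In a list of basal and immortalised epithelium, CAV1, VIM, LAMB3 and ITGB4 were lower in LNCaP, and KRT15 was not above background on any vector array of either line. The basal keratins KRT5 and KRT14 were not above background on any array of either line.

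HIP1-labelled LNCaP arrays had lower signal for most of the replication machinery. Of 48 genes tested, 36 were lower (75%) by limma's moderated test at an adjusted p under 0.05, against 4.18% of all 12022 probes tested, and 0 were higher, against 3.14%. Adjusted p-values throughout are Benjamini-Hochberg values over all probes tested in a comparison, and each group has 6 arrays. The median difference was -0.42 on the log2 scale (1.33-fold lower), with a range of -0.68 to 0.00, while the median over all probes was 0.01. In 27 genes every HIP1-labelled array lay below every vector array, a pattern seen in 2.54% of all probes, and in 0 genes all lay above, against 1.5% of probes. Averaged over the tested members, the log2 signal of an array was 8.77 to 9.02 on HIP1-labelled arrays and 9.21 to 9.36 on vector arrays, so the 12 arrays separated without overlap. In bulk RNA, fewer cells in S phase and less of these mRNAs in each cell cannot be told apart.

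**Figure D2:**
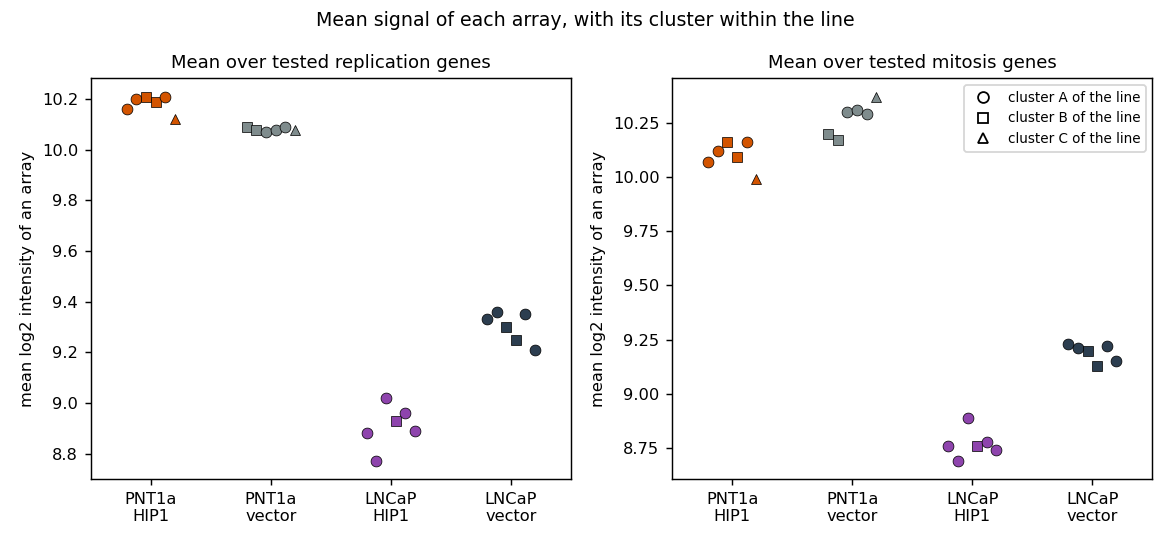
Mean log2 intensity of each array over the tested replication genes (left) and the tested mitosis genes (right), with shapes for the residual clusters of each line. HIP1-labelled LNCaP arrays sit at 8.77 to 9.02 for replication genes, all below the vector arrays at 9.21 to 9.36; in PNT1a the replication means sit at 10.12 to 10.21 on HIP1-labelled and 10.07 to 10.09 on vector arrays.

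All 6 MCM genes, the subunits of the helicase ring, were lower in HIP1-labelled LNCaP and none of their arrays overlapped. MCM2 read 8.92 to 9.34 (median 9.17) on HIP1-labelled arrays and 9.66 to 10.02 (median 9.82) on vector arrays (log2 difference -0.67, SE 0.086, adjusted p = 0.000107). MCM5 read 7.87 to 8.33 (median 8.20) on HIP1-labelled and 8.50 to 9.06 (median 8.88) on vector arrays (log2 difference -0.66, SE 0.098, adjusted p = 0.000339), and MCM4 read 9.0 to 9.58 (median 9.26) on HIP1-labelled and 9.66 to 9.97 (median 9.84) on vector arrays (log2 difference -0.55, SE 0.086, adjusted p = 0.000481). The other members, MCM3, MCM6 and MCM7, differed by -0.44 to -0.48. Second probes of MCM3, MCM4 and MCM7 were lower as well, with differences of -0.40, -0.56 and -0.61.

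Of the helicase's partners, 5 of 5 measured genes were lower. CDC45, which joins the MCM ring when an origin fires, read 8.80 to 9.42 (median 9.39) on HIP1-labelled arrays and 9.79 to 10.05 (median 9.94) on vector arrays (log2 difference -0.68, SE 0.092, adjusted p = 0.000159). HIP1-labelled array 2, at 8.80, was the lowest of these and stood apart from the other 5 of its group at 9.21 to 9.42; without it the difference was -0.58. GINS2, a subunit of the GINS complex, read 9.68 to 10.08 (median 9.88) on HIP1-labelled and 10.32 to 10.61 (median 10.51) on vector arrays (log2 difference -0.62, SE 0.081, adjusted p = 0.000126). MCM10, which helps to start the assembled helicase, read 7.86 to 8.33 (median 8.02) on HIP1-labelled and 8.54 to 8.65 (median 8.60) on vector arrays (log2 difference -0.55, SE 0.072, adjusted p = 0.000126). GINS3 and GINS4 were lower by smaller amounts (-0.32 and -0.24), and their groups overlapped. The GINS4 call was lost with no filter on dim probes (adjusted p = 0.104) and with the replicate number as a block (adjusted p = 0.06). It was also lost in several fits with 1 array left out.

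The origin recognition complex, which marks origins and stays bound through much of the cycle, had 1 call. ORC1 was the called one of 5 measured subunits, at 6.86 to 7.21 (median 7.08) on HIP1-labelled and 7.23 to 7.70 (median 7.38) on vector arrays (log2 difference -0.35, SE 0.081, adjusted p = 0.0105), and 4 of its 6 HIP1-labelled arrays were above background. ORC2, ORC3 and ORC5 had differences of -0.11 to -0.19 with adjusted p from 0.095 to 0.329. ORC6 depended on the probe: its brightest probe averaged 13.10 on HIP1-labelled and 13.11 on vector arrays (adjusted p = 0.985), while its other probe averaged 7.82 on HIP1-labelled and 8.44 on vector arrays (-0.62, adjusted p = 4.72e-05).

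Of the genes of licensing and firing, 2 of 3 tested were lower. CDT1, which brings the MCM ring to ORC, read 8.31 to 8.77 (median 8.43) on HIP1-labelled and 8.83 to 9.04 (median 8.94) on vector arrays (log2 difference -0.44, SE 0.084, adjusted p = 0.0028). CDC7, the kinase that fires loaded origins, read 6.89 to 7.29 (median 7.15) on HIP1-labelled and 7.21 to 7.60 (median 7.43) on vector arrays, and these overlapped (log2 difference -0.30, SE 0.079, adjusted p = 0.0228). Its call was lost in 4 of 22 fits with other settings or 1 array less. GMNN, the inhibitor of CDT1, differed by -0.24 and was not called (adjusted p = 0.194).

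PCNA and its loader RFC had 4 of 6 genes lower. RFC3 read 7.83 to 7.93 (median 7.89) on HIP1-labelled and 8.26 to 8.36 (median 8.32) on vector arrays (log2 difference -0.43, SE 0.055, adjusted p = 0.00011), with no overlap. RFC5 read 8.96 to 9.49 (median 9.24) on HIP1-labelled and 9.49 to 9.73 (median 9.62) on vector arrays (log2 difference -0.37, SE 0.076, adjusted p = 0.00456), also with no overlap. PCNA read 8.87 to 9.35 (median 8.97) on HIP1-labelled and 8.90 to 9.77 (median 9.55) on vector arrays, which overlapped (log2 difference -0.41, SE 0.118, adjusted p = 0.0395). The PCNA call was lost in 12 of 23 other fits, with adjusted p up to 0.142, and its other 2 probes differed by -0.23 (adjusted p = 0.0929) and 0.03 (adjusted p = 0.863). RFC1 and RFC2 were not called, at -0.17 and -0.29.

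Primase and the polymerases had 4 of 6 genes lower. PRIM1, the catalytic subunit of primase, read 8.54 to 8.94 (median 8.81) on HIP1-labelled and 9.10 to 9.48 (median 9.29) on vector arrays (log2 difference -0.52, SE 0.079, adjusted p = 0.000384). POLA2, the accessory subunit of polymerase alpha, read 8.92 to 9.24 (median 9.06) on HIP1-labelled and 9.33 to 9.63 (median 9.56) on vector arrays (log2 difference -0.47, SE 0.071, adjusted p = 0.000412), and neither gene's groups overlapped. POLE2, an accessory subunit of polymerase epsilon, read 7.83 to 8.36 (median 8.01) on HIP1-labelled and 8.34 to 8.57 (median 8.49) on vector arrays, and these overlapped (log2 difference -0.43, SE 0.08, adjusted p = 0.00228). POLA1, catalytic in polymerase alpha, was lower by less (-0.35), and the catalytic subunits of the polymerases that extend the strands, POLD1 and POLE, were not called (-0.11 and -0.20, adjusted p = 0.383 and 0.136).

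RPA, which coats single-stranded DNA, had 1 call of 3. RPA2 was lower, at 10.78 to 11.08 (median 10.86) on HIP1-labelled and 11.05 to 11.25 (median 11.10) on vector arrays (log2 difference -0.23, SE 0.068, adjusted p = 0.0411). Its call was lost in 13 of 23 other fits, with adjusted p up to 0.188. RPA1 and RPA3 differed by -0.20 and -0.22 without passing.

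The enzymes that finish the lagging strand were all lower, 4 of 4, with no overlap. EXO1, an exonuclease of repair and end processing, read 7.78 to 8.29 (median 8.09) on HIP1-labelled and 8.57 to 8.84 (median 8.72) on vector arrays (log2 difference -0.66, SE 0.079, adjusted p = 7.87e-05). RNASEH2A, the catalytic subunit of the RNase that removes ribonucleotides from DNA, read 8.46 to 8.78 (median 8.72) on HIP1-labelled and 9.12 to 9.39 (median 9.28) on vector arrays (log2 difference -0.60, SE 0.069, adjusted p = 7.87e-05). FEN1, the flap nuclease that trims Okazaki fragments, read 10.26 to 10.80 (median 10.52) on HIP1-labelled and 10.96 to 11.28 (median 11.14) on vector arrays (log2 difference -0.58, SE 0.089, adjusted p = 0.00041). LIG1, which seals them, was lower by 1.23-fold (log2 difference -0.29).

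Fork protection had 1 of 2 measured genes lower and chromatin assembly 3 of 3. TIMELESS, which with TIPIN steadies the fork, read 9.29 to 9.57 (median 9.40) on HIP1-labelled and 9.74 to 10.02 (median 9.96) on vector arrays (log2 difference -0.53, SE 0.066, adjusted p = 9.99e-05), whereas TIPIN was not called (-0.23, adjusted p = 0.0748). CHAF1B, a subunit of the histone chaperone CAF-1, read 7.85 to 8.38 (median 8.14) on HIP1-labelled and 8.46 to 8.81 (median 8.56) on vector arrays (log2 difference -0.46, SE 0.083, adjusted p = 0.00164). UHRF1, which binds hemimethylated DNA and brings in the maintenance methylase, read 8.41 to 8.81 (median 8.61) on HIP1-labelled and 8.64 to 9.38 (median 9.19) on vector arrays, which overlapped (log2 difference -0.46, SE 0.11, adjusted p = 0.0141). CHAF1A, the other subunit of CAF-1, read 6.82 to 7.39 (median 7.03) on HIP1-labelled arrays, 4 of 6 of them above background, and 7.28 to 7.79 (median 7.40) on vector arrays (log2 difference -0.38, SE 0.093, adjusted p = 0.0152).

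All 5 nucleotide enzymes were lower. TK1, which salvages thymidine, read 9.68 to 10.09 (median 9.82) on HIP1-labelled and 10.29 to 10.70 (median 10.46) on vector arrays (log2 difference -0.66, SE 0.078, adjusted p = 7.87e-05). TYMS, which makes thymidylate anew, read 9.99 to 10.40 (median 10.23) on HIP1-labelled and 10.44 to 10.93 (median 10.77) on vector arrays (log2 difference -0.52, SE 0.082, adjusted p = 0.000531). DUT, which removes dUTP before it can enter DNA, read 7.40 to 7.86 (median 7.71) on HIP1-labelled and 7.97 to 8.23 (median 8.13) on vector arrays (log2 difference -0.44, SE 0.074, adjusted p = 0.00109). The groups did not overlap in these 3 genes. RRM1 and RRM2, the subunits of ribonucleotide reductase, were lower too, at -0.37 and -0.43, and the RRM2 groups overlapped. The RRM2 call was lost in several fits with 1 array left out. The other 2 DUT probes differed by -0.18 (adjusted p = 0.129) and 0.01 (adjusted p = 0.97).

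**Figure D3:**
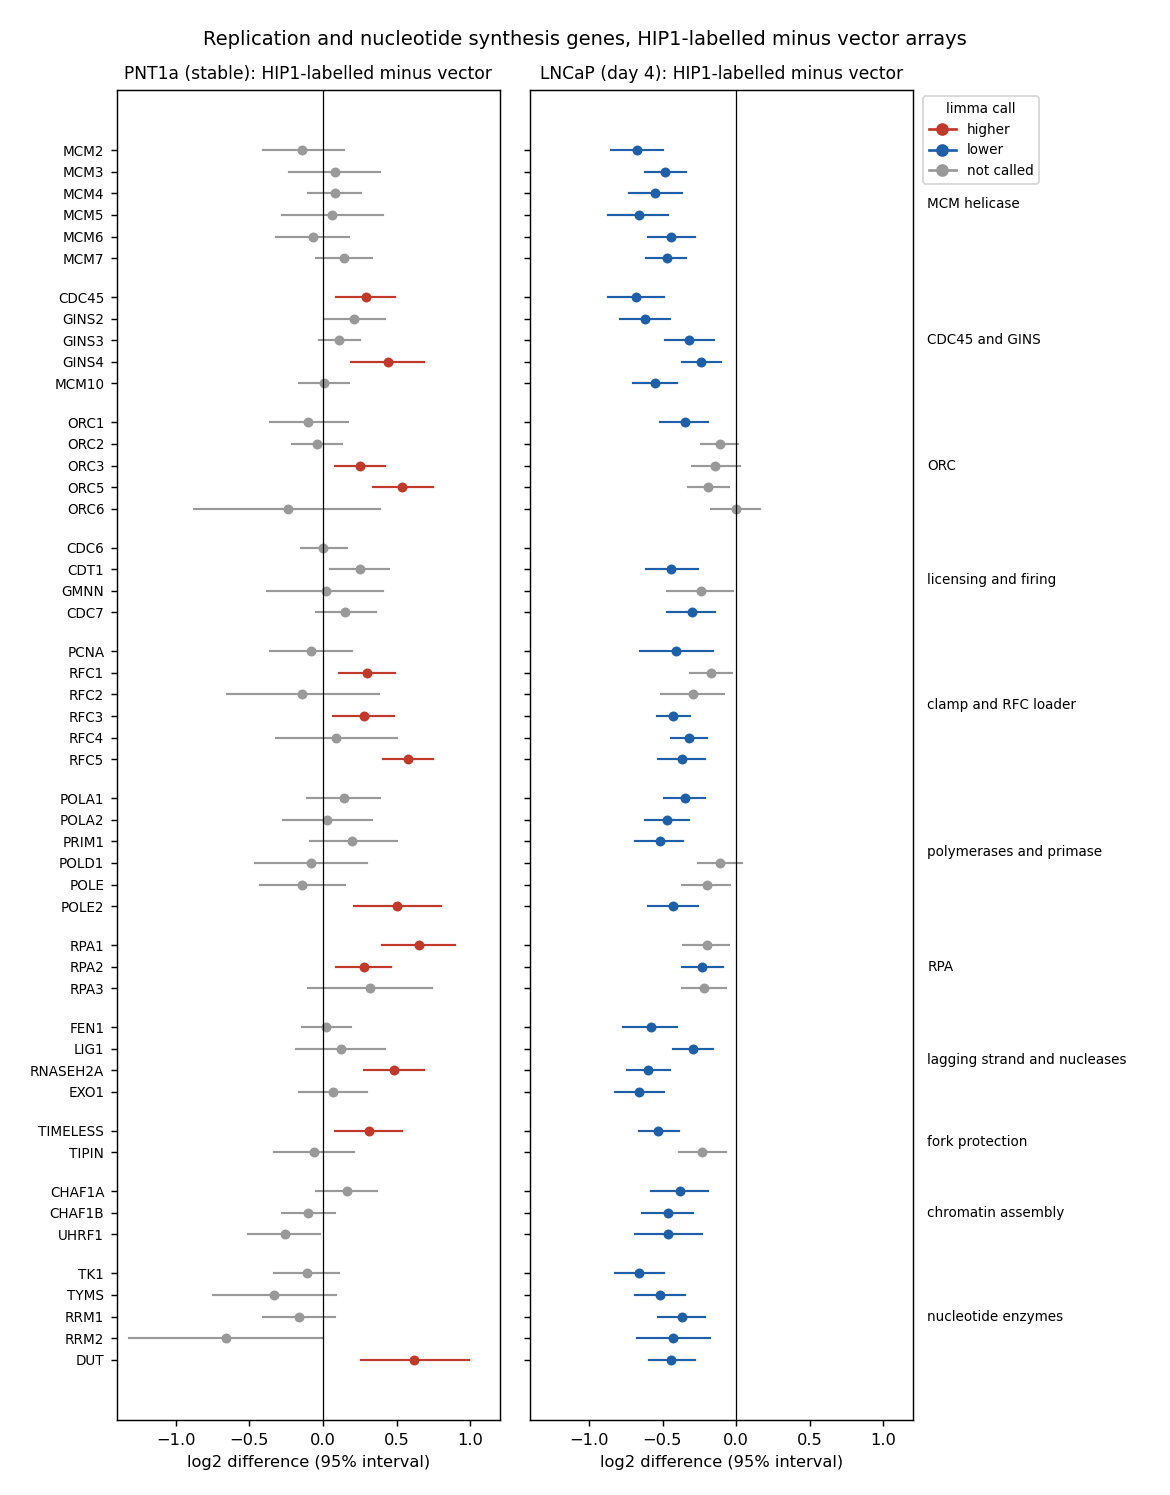
Log2 difference of each tested gene, HIP1-labelled minus vector arrays, in PNT1a (left) and LNCaP (right), with 95% intervals from limma and the genes grouped by role; colour gives the call at adjusted p 0.05. In LNCaP 36 of 48 genes were lower and 0 higher, with ORC and RPA nearest to 0; in PNT1a 13 of 49 were higher and 0 lower.

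Fitted over all 24 arrays with 1 shared spread, 26 of the 36 LNCaP calls remained; GINS4, ORC1, CDC7, PCNA, RFC4, RPA2, LIG1, TYMS, RRM2 and DUT lost theirs, with adjusted p of 0.0776 to 0.52. Within the larger LNCaP cluster (5 HIP1-labelled and 4 vector arrays) 47 of 48 differences were negative with a median of -0.43, and within the smaller (1 HIP1-labelled and 2 vector arrays) 45 of 48 with a median of -0.38.

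Other cell cycle genes were read on the same arrays. Of 24 mitosis genes tested in LNCaP, 19 were lower (79.2%) and 0 higher, with a median of -0.42. ZWINT, a kinetochore protein, averaged 9.25 on HIP1-labelled and 9.99 on vector arrays (log2 difference -0.73, SE 0.088, adjusted p = 7.87e-05), and the cyclin CCNA2 averaged 8.73 on HIP1-labelled and 9.31 on vector arrays (log2 difference -0.59, SE 0.063, adjusted p = 4.72e-05). AURKB, a mitotic kinase, and CDC20, an activator of the anaphase-promoting complex, were lower too (-0.57 and -0.53). Array means over the mitosis genes were 8.69 to 8.89 on HIP1-labelled and 9.13 to 9.23 on vector arrays, with no overlap.

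Of 20 tested replication factors outside the 53, 4 were lower (20%, against 4.18% of all probes) and 0 higher (against 3.14%), with a median of -0.14. The 4 were ASF1B, a histone chaperone (-0.54), POLE3, an accessory subunit of polymerase epsilon (-0.38), DNMT1, the maintenance methylase (-0.36), and RECQL4, a helicase (-0.24); the RECQL4 call was lost in 16 of 23 other fits. Of 26 further enzymes of nucleotide synthesis, 3 were lower and 0 higher (median -0.08): NME1, a nucleoside diphosphate kinase (-0.39), DCTPP1, which degrades dCTP (-0.26), and SHMT1, which feeds folate to thymidylate synthesis (-0.24). Calls of DCTPP1 and SHMT1 were lost in 4 and 12 of 23 other fits. How these lists differ from the 53 was not tested.

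Among 10 tested E2F and retinoblastoma family genes, 2 were lower (20%, against 4.18% of all probes) and 0 higher. E2F2, an activator, averaged 8.16 on HIP1-labelled and 8.74 on vector arrays (log2 difference -0.58, SE 0.081, adjusted p = 0.000205), and E2F7, a repressor, averaged 7.05 on HIP1-labelled and 7.48 on vector arrays (log2 difference -0.43, SE 0.087, adjusted p = 0.00447). Of 5 tested inhibitors of cyclin-dependent kinases, CDKN1A, the p21 protein, was higher at a mean of 12.48 on HIP1-labelled and 12.13 on vector arrays (log2 difference 0.35, SE 0.079, adjusted p = 0.01), and 0 were lower. The E2F2 groups did not overlap, and those of E2F7 and CDKN1A did. With 1 shared spread over 24 arrays the CDKN1A call was lost (adjusted p = 0.352). Of 7 measured luminal markers, 3 were higher on the same arrays (TMPRSS2 0.56, KLK2 0.45 and FOLH1 0.44), 4 were not called and 0 were lower; their part in the result was not tested. Fibroblast markers were above background for 1 of 8 genes in LNCaP, ACTA2 (0.14, not called), and markers of blood cells for 0 of 8.

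In PNT1a fewer members were called, and at the brightest probes all calls were upward. HIP1-labelled arrays were higher for 13 of 49 tested members (26.5%), against 14.1% of all 12238 probes, and lower for 0, against 13.4%. The p-values here measure spread between cultures of stably transfected cells. Whether the cultures of a group came from separate transfections is not given. How each stable line was derived and HIP1 itself therefore cannot be told apart. The median difference was 0.08 on the log2 scale, with a range of -0.66 to 0.65, and the median over all probes was 0.00. In 4 of the 49 genes, ORC3, RFC5, RPA1 and RNASEH2A, every HIP1-labelled array lay above every vector array. That is near the share of all probes, 7.92%. In 0 genes all lay below, against 7.44% of probes. Member means were 10.12 to 10.21 on HIP1-labelled arrays and 10.07 to 10.09 on vector arrays.

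The calls were spread over 8 of the 11 roles. RPA1, the large subunit of RPA, read 11.46 to 11.89 (median 11.76) on HIP1-labelled and 10.66 to 11.35 (median 11.13) on vector arrays (log2 difference 0.65, SE 0.114, adjusted p = 0.000811). A second RPA1 probe differed by 0.50 and was not called (adjusted p = 0.114). RPA2 read 10.88 to 11.17 (median 11.06) on HIP1-labelled and 10.54 to 10.97 (median 10.77) on vector arrays, which overlapped (log2 difference 0.28, SE 0.086, adjusted p = 0.0282). RPA3, the small subunit, differed by 0.32 with a wide interval of -0.10 to 0.74 and was not called.

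Of the clamp and its loader, 3 of 6 genes were higher. RFC5 read 10.03 to 10.31 (median 10.16) on HIP1-labelled and 9.37 to 9.68 (median 9.64) on vector arrays (log2 difference 0.58, SE 0.079, adjusted p = 0.000104). RFC1, the large loader subunit, read 9.40 to 9.81 (median 9.66) on HIP1-labelled and 9.27 to 9.46 (median 9.31) on vector arrays (log2 difference 0.30, SE 0.089, adjusted p = 0.0236), and RFC3 read 8.96 to 9.29 (median 9.05) on HIP1-labelled and 8.53 to 9.03 (median 8.79) on vector arrays (log2 difference 0.28, SE 0.096, adjusted p = 0.0449). Groups overlapped for RFC1 and RFC3, and PCNA was not called (-0.08, adjusted p = 0.723).

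DUT had the second largest rise, at 9.42 to 9.99 (median 9.89) on HIP1-labelled and 8.40 to 9.45 (median 9.35) on vector arrays (log2 difference 0.62, SE 0.168, adjusted p = 0.0139). Vector array 6, at 8.40, lay far below its group, whose other arrays were at 9.25 to 9.45, and HIP1-labelled array 6, at 9.42, lay below the other HIP1-labelled arrays. The other nucleotide enzymes had negative differences and were not called. RRM2 had the widest spread of them, 7.10 to 9.17 (median 9.05) on HIP1-labelled and 8.90 to 9.66 (median 9.31) on vector arrays (log2 difference -0.66, 95% interval -1.32 to 0.00, adjusted p = 0.131). Without both arrays numbered 6 the RRM2 difference was -0.43 and was called (adjusted p = 0.011). TYMS, TK1 and RRM1 differed by -0.33, -0.11 and -0.16.

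ORC5, a subunit of ORC, read 9.97 to 10.45 (median 10.35) on HIP1-labelled and 9.62 to 9.98 (median 9.75) on vector arrays (log2 difference 0.54, SE 0.094, adjusted p = 0.000701), which overlapped. ORC6 was not called at its brightest probe (-0.24, adjusted p = 0.611), while its other probe was lower, at 8.11 to 8.91 (median 8.57) on HIP1-labelled and 8.82 to 9.22 (median 8.93) on vector arrays (-0.39, adjusted p = 0.03). ORC3 read 8.25 to 8.68 (median 8.39) on HIP1-labelled and 8.13 to 8.23 (median 8.14) on vector arrays (log2 difference 0.25, SE 0.08, adjusted p = 0.0328). POLE2 read 9.30 to 9.97 (median 9.59) on HIP1-labelled and 8.84 to 9.44 (median 9.16) on vector arrays, overlapping (log2 difference 0.50, SE 0.136, adjusted p = 0.0141). RNASEH2A, in contrast, separated fully at 11.01 to 11.45 (median 11.20) on HIP1-labelled and 10.56 to 10.93 (median 10.72) on vector arrays (log2 difference 0.48, SE 0.095, adjusted p = 0.00185).

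Of the helicase's partners, GINS4 read 7.67 to 8.15 (median 8.01) on HIP1-labelled and 7.32 to 7.99 (median 7.45) on vector arrays (log2 difference 0.44, SE 0.117, adjusted p = 0.0127), and CDC45 read 11.52 to 12.01 (median 11.75) on HIP1-labelled and 11.26 to 11.62 (median 11.47) on vector arrays (log2 difference 0.29, SE 0.093, adjusted p = 0.0332). Both pairs of groups overlapped. TIMELESS read 10.12 to 10.85 (median 10.52) on HIP1-labelled and 10.12 to 10.28 (median 10.23) on vector arrays (log2 difference 0.31, SE 0.106, adjusted p = 0.043). No MCM gene was called: MCM2 read 10.75 to 11.45 (median 11.09) on HIP1-labelled and 10.83 to 11.43 (median 11.27) on vector arrays (log2 difference -0.14, 95% interval -0.41 to 0.14, adjusted p = 0.486). Among genes of licensing and firing CDT1 came closest, at 10.24 to 10.63 (median 10.38) on HIP1-labelled and 9.99 to 10.39 (median 10.15) on vector arrays (log2 difference 0.25, adjusted p = 0.0605). Among chromatin assembly genes UHRF1 did, at 11.01 to 11.77 (median 11.57) on HIP1-labelled and 11.67 to 11.89 (median 11.77) on vector arrays (log2 difference -0.26, adjusted p = 0.101).

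Several PNT1a calls depended on single arrays. Without vector array 3, or without HIP1-labelled array 2, 7 of the 13 remained, with CDC45, ORC3, RFC1, RFC3, RPA2 and TIMELESS lost in each case. Over 23 other fits TIMELESS lost its call in 12, RFC3 in 11, ORC3 in 8, CDC45 in 7, RPA2 in 6 and RFC1 in 3, while RPA1, DUT, RFC5, ORC5, POLE2, RNASEH2A and GINS4 kept theirs in every fit run. Within the PNT1a clusters the median difference was 0.11 (3 arrays a group), 0.04 (2 a group) and 0.08 (1 a group).

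Of 24 mitosis genes tested in PNT1a, 5 were lower (20.8%), against 13.4% of all probes, and 1 was higher (4.17%), against 14.1%. The median was -0.12, and the 5 lower genes separated without overlap. UBE2C, the ubiquitin carrier of the anaphase-promoting complex, averaged 11.42 on HIP1-labelled and 12.49 on vector arrays, and the spindle motor KIF11 averaged 8.89 on HIP1-labelled and 9.89 on vector arrays (-1.07 and -1.0). The kinase AURKA and the cyclin CCNA2 were lower as well (-0.71 and -0.43). CENPE, lower at -0.40, and NUSAP1, the higher gene at 0.28, were named after their values were seen. Whether replication and mitosis genes differed from each other was not tested.

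Other replication factors gave 2 higher and 2 lower of 22 tested (9.09% each, against 14.1% and 13.4% of all probes). ASF1B (0.33) and WDHD1, an adaptor at the fork (0.26), were higher. ASF1A (-0.42) and DSCC1, a loader subunit of sister chromatid cohesion (-0.26), were lower. The ASF1B and DSCC1 calls were lost in 14 and 12 of 23 other fits. Of 27 further nucleotide enzymes, 1 was higher (3.7%, against 14.1% of all probes) and 5 were lower (18.5%, against 13.4%). CTPS1, which makes CTP, averaged 9.13 on HIP1-labelled and 9.88 on vector arrays (log2 difference -0.76, SE 0.092, adjusted p = 4.09e-05). IMPDH2, the committed step to GTP, and GUK1, guanylate kinase, were lower (-0.34 and -0.33), and PAICS of purine synthesis was higher (0.32). ATIC and TK2, named after their values were seen, were lower (-0.25 and -0.27).

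Regulators of E2F had 5 higher and 1 lower of 10 tested in PNT1a (50% and 10%, against 14.1% and 13.4% of all probes). TFDP2, a partner of E2F proteins, averaged 8.18 on HIP1-labelled and 7.60 on vector arrays, and RBL2, the pocket protein p130, averaged 9.0 on HIP1-labelled and 8.47 on vector arrays (0.57 and 0.54). E2F2 was higher (0.47) and TFDP1, the other partner, was lower (-0.50). RBL1 and E2F6, named after their values were seen, were the other higher genes (0.41 and 0.31). Of 5 tested kinase inhibitors, CDKN2B and CDKN2A were higher (0.60 and 0.44) and CDKN2D was lower (-0.60). Fibroblast markers moved on the same arrays: 4 of 8 were measured, 2 of them were lower (ACTA2 -1.28 and THY1 -1.03), and their mean signal was 9.13 to 9.65 on HIP1-labelled and 9.71 to 10.11 on vector arrays. COL1A2, COL3A1, DCN and LUM were not above background on any array. Of 8 markers of blood cells 3 were measured and 2 were lower, CD68 of macrophages (-0.72) and the haemoglobin gene HBA2 (at least 1.18-fold), with means of 8.34 to 9.09 on HIP1-labelled and 8.62 to 9.29 on vector arrays, and the leukocyte genes PTPRC, CD3E and LYZ and the haemoglobin gene HBB were not above background on any array. Epithelial markers moved too: KRT15 was at least 1.36-fold higher, ITGB4 was higher (0.62), and VIM and the luminal KRT8 were lower (-0.83 and -0.78), out of 5 basal and immortalised and 2 luminal markers measured. Their part in the result was not tested.

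**Figure D4:**
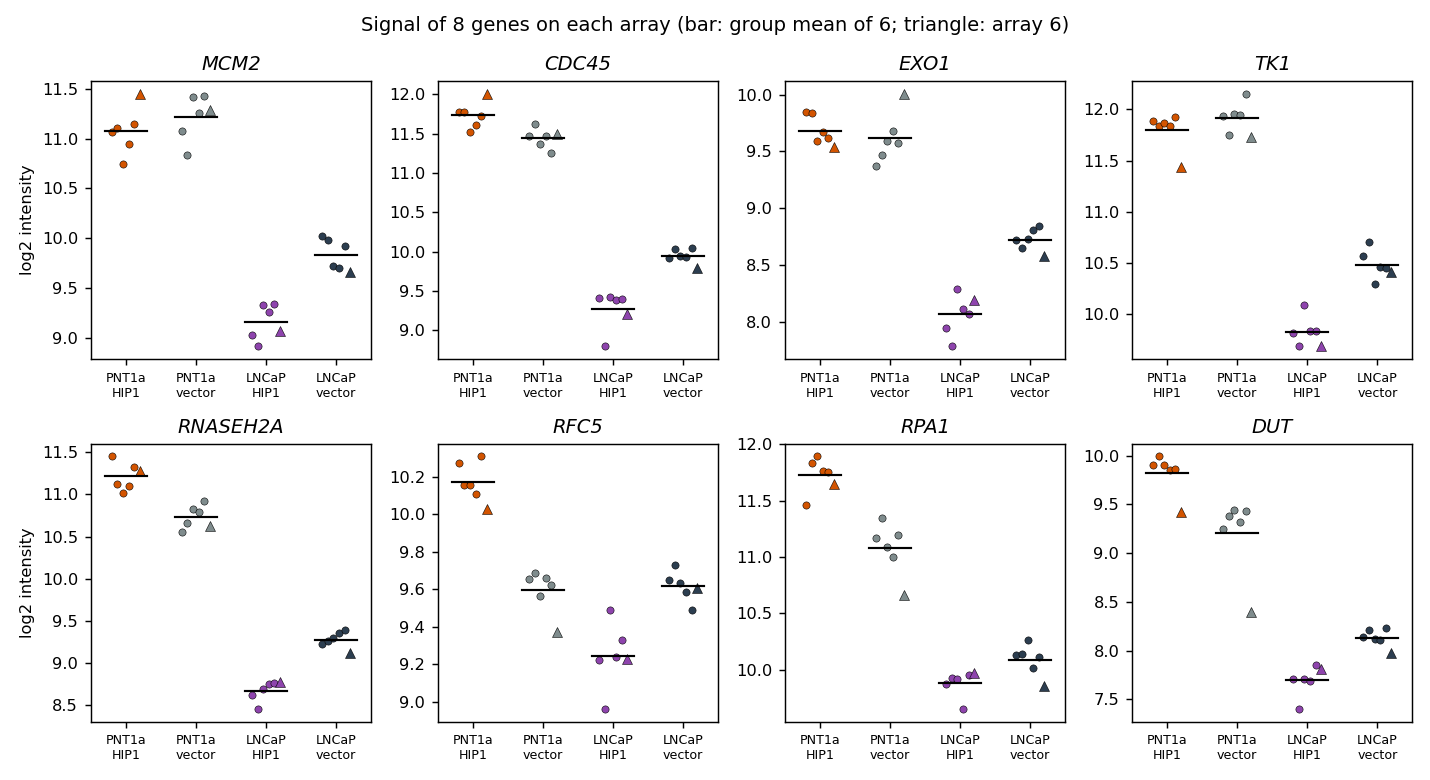
Log2 intensity on each array for 8 members, in PNT1a with HIP1, PNT1a with vector, LNCaP with HIP1 and LNCaP with vector; bars are means of 6 arrays and triangles mark array 6 of each group. MCM2, EXO1 and TK1 are lower on HIP1-labelled LNCaP arrays and overlap in PNT1a, while RNASEH2A and RFC5 are higher on HIP1-labelled arrays in PNT1a and lower in LNCaP.

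The effects of the HIP1 construct differed between the lines for most members. In a fit of all 24 arrays, the LNCaP difference minus the PNT1a difference was below 0 and called for 31 of 48 genes (64.6%). The share was 11.8% over all 10314 probes tested in both lines. Above 0 and called were 0 genes, against 10.4% of probes. The median was -0.52 and the median over all probes 0.00. RNASEH2A differed by -1.08 (95% interval -1.32 to -0.85, adjusted p = 1.28e-07), DUT by -1.06 (-1.45 to -0.67, adjusted p = 0.000176) and CDC45 by -0.96 (-1.25 to -0.68, adjusted p = 1.01e-05). RFC5, POLE2 and RPA1 followed at -0.95, -0.93 and -0.85, and the second RPA1 probe was not called (-0.58, adjusted p = 0.101). A second DUT probe was called (-0.84, adjusted p = 1.02e-05) and the third was not (-0.05, adjusted p = 0.898). Second probes of MCM4 and MCM10 were called too (-0.51 and -0.42). Those of MCM3, MCM7, FEN1, RFC1, RFC3 and PRIM1 were negative but not called (-0.29, -0.97, -0.40, -0.19, -0.87 and -0.64).

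By complex, the difference between lines was called for 5 of 5 CDC45 and GINS genes, 5 of 6 MCM genes, 4 of 6 polymerase and primase genes, 3 of 4 lagging-strand genes, 2 of 5 ORC genes and 2 of 5 nucleotide enzymes. All these calls were below 0, against 11.8% of all probes. TYMS, RRM1 and RRM2 were not called (-0.19, -0.21 and 0.23), with 95% intervals of -0.64 to 0.26, -0.50 to 0.08 and -0.48 to 0.95. Counting calls in each line, 9 genes were higher in PNT1a and lower in LNCaP, 27 were lower in LNCaP and not called in PNT1a, 4 were higher in PNT1a and not called in LNCaP, and 8 were called in neither. Across the 48 genes the LNCaP and PNT1a differences correlated at r = 0.06 and rho = 0.07, a description over genes that share arrays. The lines also differ in stable against transient expression, selection and time, so line and kind of transfection cannot be told apart.

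E2F2 differed between the lines by -1.05 (adjusted p = 6.82e-06), as did TFDP2 (-0.71), and CDKN2B and CDKN2A (-0.58 and -0.51). The mitosis genes gave 9 lower of 24 (37.5%, against 11.8% of all probes) and 2 higher (8.33%, against 10.4%). ZWINT at -0.88 was among the lower, and KIF11 (0.72) and UBE2C (0.55, named after its value was seen) were the higher genes. Among other replication factors, 3 of 20 were lower (15%, near the share of all probes), ASF1B (-0.87), POLE3 (-0.56) and DNA2, a nuclease-helicase (-0.35).

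The vector arrays of the lines were compared to ask how much of the machinery each line carries. LNCaP vector arrays were lower than PNT1a vector arrays for 39 of 49 members (79.6%), against 36.9% of all 13946 probes, and higher for 5 (10.2%), against 39.6%, with 76.5% of probes called in either direction. Probes that passed the filter in either line were tested here. The 39 therefore include CDC6, which passed in PNT1a alone, and the shares of all probes include probes that passed in 1 line. The median difference was -0.90 (1.86-fold lower) and ranged from -2.71 to 1.05, while the median over all probes was 0.02. In 35 genes all LNCaP vector arrays lay below all PNT1a vector arrays and in 4 genes above, against 27.5% and 30.7% of probes. These vector arrays are also the controls of the HIP1 comparisons, and the lines differ in origin, selection and transfection, which cannot be told apart here. Every array of the deposited values has a median of 6.56, so each difference is relative to the rest of the array.

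At the brightest probes 6 of 6 MCM genes were lower in LNCaP, with a median of -1.65. MCM3 read 10.89 to 11.17 (median 11.05) on LNCaP vector and 12.85 to 13.11 (median 12.95) on PNT1a vector arrays (log2 difference -1.92, SE 0.072, adjusted p = 1.51e-12). MCM6 read 10.78 to 11.01 (median 10.87) on LNCaP vector and 12.20 to 12.90 (median 12.72) on PNT1a vector arrays (log2 difference -1.79, SE 0.102, adjusted p = 2.49e-10), and MCM5 read 8.50 to 9.06 (median 8.88) on LNCaP vector and 10.35 to 10.80 (median 10.46) on PNT1a vector arrays (log2 difference -1.66, SE 0.108, adjusted p = 1.11e-09). At these brightest probes no LNCaP vector array reached the lowest PNT1a vector array in any MCM gene. A second MCM7 probe read 8.26 to 8.94 on LNCaP vector and 7.37 to 9.53 on PNT1a vector arrays, which overlapped, and was not called (-0.29, adjusted p = 0.344).

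GINS3 read 8.55 to 8.92 (median 8.73) on LNCaP vector and 10.30 to 10.51 (median 10.39) on PNT1a vector arrays (log2 difference -1.65, SE 0.074, adjusted p = 1.38e-11), and CDC45 and GINS2 differed by -1.50 and -1.03. GINS4 was not called (0.04, 95% interval -0.17 to 0.26). ORC split, with ORC5 and ORC2 higher in LNCaP and ORC6 and ORC1 lower. ORC5 read 10.76 to 10.95 (median 10.79) on LNCaP vector and 9.62 to 9.98 (median 9.75) on PNT1a vector arrays (log2 difference 1.05, SE 0.071, adjusted p = 1.82e-09), and ORC2 read 8.74 to 8.90 (median 8.82) on LNCaP vector and 7.86 to 8.20 (median 8.06) on PNT1a vector arrays (log2 difference 0.78, SE 0.068, adjusted p = 4.38e-08). ORC6 differed by -0.66, and its second probe by -0.52.

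UHRF1 differed most at its brightest probe, 6.53-fold, at 8.64 to 9.38 (median 9.19) on LNCaP vector and 11.67 to 11.89 (median 11.77) on PNT1a vector arrays (log2 difference -2.71, SE 0.117, adjusted p = 8.02e-12). Its second probe differed by -0.97, but was above background on 0 of 6 LNCaP vector arrays, so that difference is limited by background. With the mean of its probes, the dim one included, UHRF1 differed by -1.84, less than MCM3. CHAF1B and CHAF1A differed by -1.21 and -0.67. LIG1 read 7.33 to 7.59 (median 7.54) on LNCaP vector and 9.17 to 9.53 (median 9.33) on PNT1a vector arrays (log2 difference -1.83, SE 0.077, adjusted p = 6.53e-12), and RNASEH2A and FEN1 differed by -1.45 and -1.33, so that the lagging-strand enzymes were lower as a set, 4 of 4. The 5 nucleotide enzymes were lower as well. RRM2 read 7.06 to 7.84 (median 7.72) on LNCaP vector and 8.90 to 9.66 (median 9.31) on PNT1a vector arrays (log2 difference -1.76, SE 0.153, adjusted p = 3.9e-08), and TK1 and TYMS differed by -1.43 and -1.36.

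Polymerase genes were lower in LNCaP, 5 of 6 with primase counted. POLE read 7.83 to 8.26 (median 8.07) on LNCaP vector and 9.22 to 9.88 (median 9.51) on PNT1a vector arrays (log2 difference -1.43, SE 0.111, adjusted p = 1.1e-08), and POLD1 and POLA1 differed by -1.39 and -1.16, whereas PRIM1, named after its value was seen, was higher by 0.26. RPA split by subunit: RPA1 was lower (-0.99) and RPA3 and RPA2 were higher (0.41 and 0.35); a second RPA1 probe differed by -0.12 and was not called (adjusted p = 0.5). RFC4 differed by -1.09 and RFC3 by -0.48, and RFC5 did not differ past the threshold (0.02, 95% interval -0.13 to 0.17). CDT1 differed by -1.23, CDC7 by -0.30 and TIMELESS by -0.28. CDC6 differed by -0.33, with 1 of 6 LNCaP vector arrays above background.

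PCNA turned on the probe. The brightest gave 8.90 to 9.77 (median 9.55) on LNCaP vector and 10.04 to 10.58 (median 10.25) on PNT1a vector arrays (log2 difference -0.82, SE 0.136, adjusted p = 4.85e-05), while the other 2 probes were higher in LNCaP by 0.58 and 0.56. With the mean of its probes PCNA differed by 0.10 and was not called (adjusted p = 0.243). Under the same rule RFC3 differed by -0.16 and lost its call (adjusted p = 0.165). Of the RFC3 probes averaged, 1 was not above background on any vector array of either line (-0.07), and another differed by 0.06.

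**Figure D5:**
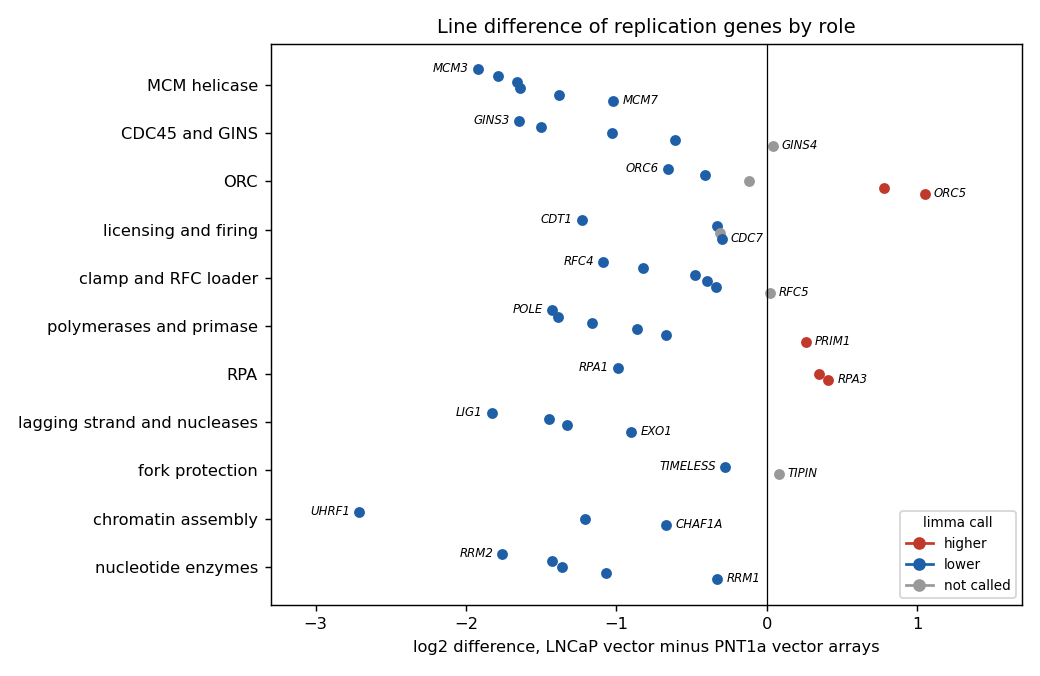
Log2 difference of each member between LNCaP vector and PNT1a vector arrays, grouped by role, with the outermost genes of each role named and colour for the call. The MCM genes lie between -1.92 and -1.02 and UHRF1 at -2.71, while ORC5, ORC2, RPA3, RPA2 and PRIM1 lie above 0.

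The MCM genes were also set in order over the 4 groups. In the MCM mean of an array, HIP1-labelled PNT1a arrays (11.84 to 12.28) overlapped PNT1a vector arrays (11.89 to 12.11), and HIP1-labelled LNCaP arrays (9.69 to 10.03) lay under LNCaP vector arrays (10.26 to 10.53). The LNCaP MCM means lay wholly below those of PNT1a, and the HIP1-labelled LNCaP arrays were the lowest. For the 6 MCM genes the differences ran from -1.92 to -1.02 between the vector groups. They ran from -0.67 to -0.44 between HIP1-labelled and vector arrays in LNCaP. These 2 comparisons share the LNCaP vector arrays.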

How the data were processed

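Total RNA of 24 cultures was measured on 1-colour Illumina arrays. The deposited values are log2 intensities, 1 per probe and array, per the series table's own values; how they were normalized is not stated there or in the labels, and array medians were all 6.56, with sorted values that differ by at most 0.0517 between arrays. The authors' table of linear intensity before normalization was used for 6 arrays, to check the scale; 18 of its columns could not be matched to samples and were not used. Arrays give no read depth, so the number of arrays limits the precision.

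From the deposited log2 values, background was set at 6.97, the mode of all probes (6.48) plus 3 SD (0.163), and probes above it on at least 6 of 12 arrays of a line were tested. The vector comparison took probes that passed in either line, and the difference between lines took probes that passed in both. Of 48803 probes, 28098 had 1 gene symbol, 13 several and 20692 none. limma 3.58.1 in R 4.3.3 (lmFit, eBayes, Benjamini-Hochberg) was fitted for each line, for the 12 vector arrays, and for all 24 arrays for the difference between lines. Where 1 side was never above background, the fold is a bound, the mean of the other side against the background level of 6.97. Both HIP1 comparisons and the line comparison share vector arrays. Replicates are cultures labelled as biological replicates.

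Named genes were up to 3 called members of each role with the largest differences (1 where none was called) and up to 4 of each other list (6 members for the difference between lines); other genes given with a value were added after it was seen. The members, lists and motif words were chosen with earlier results of these data known. Promoters are RefSeq's, GRCh38.p14, matched by symbol for 48 of 53 members; MCM4, MCM5, GINS4, RPA2 and RPA3 were not matched. Alternatives were another filter, the mean of a gene's probes, a shared spread, centring, array weights, trended eBayes, the replicate number or array cluster as a block, and leaving out arrays.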

Additional observations from a re-analysis of the deposited data

Results flagged for a closer look

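Of 174 groups of 6 arrays, over 44 members, 31 held an array far from the other 5 by Dixon's criterion, which chance meets in about 1 group in 20. PNT1a arrays numbered 6 made up 19 of the 31. HIP1-labelled PNT1a array 6 was the highest of its group for MCM3 (13.75), MCM5 (11.35), MCM10 (9.44), ORC6 (14.69), POLD1 (9.72) and POLE (9.86). It was the lowest for ORC5 (9.97), RFC4 (10.19), PRIM1 (8.57), RPA3 (11.14), TK1 (11.44), TYMS (10.74), RRM2 (7.10) and DUT (9.42). Vector PNT1a array 6 was the highest for MCM5 (10.80), GINS4 (7.99), ORC6 (14.87) and POLD1 (9.88) and the lowest for DUT (8.40). These arrays also correlated least with their groups, and without both of them 16 members were higher and 2 lower in PNT1a.

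Elsewhere single arrays stood apart. On HIP1-labelled LNCaP arrays, array 2 was lowest for CDC45 (8.80) and DUT (7.40), and array 4 for RPA1 (9.65). On LNCaP vector arrays, array 5 was highest for ORC5 (10.95) and RPA3 (12.36), and array 3 was lowest for RFC4 (9.82), array 4 for POLA1 (7.71) and array 6 for POLA2 (9.33) and TIMELESS (9.74). HIP1-labelled PNT1a array 1 was lowest for UHRF1 (11.01). PNT1a vector array 5 was lowest for CDC7 (7.56) and array 1 highest for RFC1 (9.46).

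The difference between HIP1-labelled and vector arrays was not the same in the lines, by the interaction term, for 31 of 48 members. The share was 22.2% over all probes tested in both lines. The LNCaP difference minus the PNT1a difference was -1.08 for RNASEH2A, -1.06 for DUT, -0.96 for CDC45, -0.95 for RFC5, -0.93 for POLE2 and -0.85 for RPA1 on the log2 scale, the widest of the 48.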

How the results depend on the processing

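Arrays carry no read depth, so precision rests on 6 arrays a group and on signal over background; CDC6, ORC1, CHAF1A and E2F7 sat near background in LNCaP. The 36 lower and 0 higher LNCaP members became 31 to 39 and 0 with 1 array left out, with a median of -0.43 to -0.38 and 519 to 1193 probes called, against 880; HIP1-labelled array 2 gave the 519. The 880 became 549 with no filter and 235 with a shared spread. In PNT1a the 13 higher and 0 lower members became 7 to 15 and 0 to 1, the median 0.08 to 0.11 and the probes called 2829 to 4687, against 3370. Lower members in PNT1a numbered 1 with the mean of a gene's probes (median 0.12), 1 with a shared spread, 3 with array weights, 4 with the cluster block and 2 without both arrays numbered 6. Probes called in PNT1a numbered 6057 with array weights, 5822 with the cluster block and 5522 without those arrays; for the difference between lines the numbers were 4102, 3906 and 3634, against 2291, and the cluster block gave 1 higher member, ORC6. Leaving out 1 array gave 30 to 36 lower and 0 higher members for the difference between lines, with medians of -0.54 to -0.47 and 2066 to 3238 probes called. Between the vector groups it gave 38 to 40 lower and 5 higher members, medians of -0.95 to -0.85 and 10369 to 11240 probes called. There the median was -0.67 with the mean of a gene's probes, which turned PCNA to 0.10 since its other 2 probes are higher in LNCaP, and 6498 probes were called, against 10669, when probes had to be above background on every array, since fewer were tested. A cluster block could not be fitted between the lines, as each cluster lies in 1 line. The cause of the other changes was not tested.

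Same-numbered arrays of HIP1-labelled and vector groups did not deviate together in every pair (correlations of -0.04 to 0.70 in PNT1a and -0.24 to 0.32 in LNCaP). The 0.70 was that of the PNT1a arrays numbered 6. The numbers were not taken to pair the samples, and whether some share a batch is not known. With the replicate block, 14 members were higher and 1 lower in PNT1a, 34 lower in LNCaP, 40 lower between the vector groups and 35 lower for the difference between lines. Leaving out the 3 LNCaP arrays of the smaller cluster, chosen after seeing the data, gave 37 lower members, 35 of them among the 36, and 28 lower for the difference between lines. Of the named and called genes, 22 of 32 in PNT1a, 30 of 40 in LNCaP, 48 of 50 between vector groups and 20 of 23 for the difference between lines kept their call in every fit run.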

Other observations

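Other gene groups differed between the vector arrays of the lines. Of 24 mitosis genes 23 were lower in LNCaP vector arrays than in PNT1a vector arrays, against 36.9% of all probes, and 0 were higher (median -1.11), with the mitotic kinase AURKA at a log2 difference of -2.35, KIF11 at -1.98, KIF23 at -1.83 and AURKB at -1.70. Of 22 other replication factors 14 were lower and 2 higher (63.6% and 9.09%, against 36.9% and 39.6% of all probes). ASF1B was the lowest at -2.01, followed by TOP2A, the topoisomerase of dividing cells, at -1.86. POLD4, a small subunit of polymerase delta, and TOP2B, the topoisomerase found also in resting cells, were the higher genes at 0.67 and 0.74, named after their values were seen.

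Of 28 further enzymes of nucleotide synthesis 12 were higher (42.9%) and 11 lower (39.3%) in LNCaP vector arrays, close to the 39.6% and 36.9% of all probes. The higher ones include IMPDH2, which commits IMP to GTP, at 1.85, and ATIC, which closes the purine ring, at 1.57. RRM2B, the reductase subunit induced by p53, was higher at 0.96, while CTPS2, which makes CTP, was lower at -1.76. Of 11 E2F and retinoblastoma family genes 8 were lower (72.7%) and 2 higher (18.2%), TFDP1 at -1.49 and E2F7 at -1.41 among the lower. E2F5, not above background on any PNT1a vector array, was at least 2.83-fold higher in LNCaP. RBL2, named after its value was seen, was the other higher gene at 0.83. Of 5 kinase inhibitors 3 were lower and 0 higher, and CDKN2A, the p16 gene, had the largest difference at -1.57.

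Of 20 members with more than 1 probe, 14 had more than 1 probe tested in LNCaP, and in 10 of these every probe had a negative difference between HIP1-labelled and vector arrays. A second PRIM1 probe differed by -0.42 and second probes of RFC4 and FEN1 by -0.37 and -0.46. In PNT1a a second DUT probe was higher by 0.66 (adjusted p = 0.000228) and the other differed by 0.06 (adjusted p = 0.851).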
